A study of Mus musculus with 2 samples.

Results

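The genes described here build and run the mitotic machinery: 57 mouse genes for the cyclins and kinases of mitosis, the spindle checkpoint, the mitotic kinesins, the kinetochore, the chromosomal passenger complex, cytokinesis, condensin and chromosome separation, with the transcription factor gene Foxm1. They were taken from a fixed list of gene symbols and found on the arrays through the transcript accession of each probe. That list was chosen with earlier results of these data known. Of the 57, 56 had a value, out of 13510 named genes with a value and 18434 named genes in all. Prc1, which encodes a bundler of spindle midzone microtubules, had no named probe, so only its promoter windows were analysed here.

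The study set Menin KO against Menin WT CD4 T cells, with 1 array of each, and the comparison asks which genes differ when activated T cells lack Menin. Menin is the product of Men1 and a subunit of MLL histone methyltransferase complexes. In both groups naive CD4 T cells came from spleens of female C57BL/6J mice, and were activated for 2 days on antibody to TCR-β (3 µg/ml) with antibody to CD28 (1 µg/ml) and IL-2 (2.5 ng/ml), then kept for 3 days in IL-2 alone. How Menin was removed, in which cells, the age of the mice and how many mice gave each RNA are not given in the sources used here.

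The signal of Men1 was 459 in KO and 1081 in WT, a log2 difference of -1.25, read by 1 probe whose place relative to the deletion is not known here. With 1 array of each genotype there was no test and no p-value, and every difference below is a log2 value of KO minus WT, scaled to each array's 75th percentile of signal. Probes printed several times on an array gave a spot-to-spot SD of that difference of 0.132 (146 probes), and of 0.0562 for signals of 100 or more. That SD holds spot scatter only and leaves out mice, cultures and RNA preparations. The array reads RNA of a whole culture, so fewer cells in mitosis and less of these RNAs per cell cannot be told apart.

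A dividing cell makes most of these RNAs late in its cycle. Cyclins A and B switch on Cdk1, spindle microtubules capture chromosomes at the kinetochores, and the spindle checkpoint holds back the anaphase promoting complex until every chromosome is attached. That complex then marks securin and the B cyclins for destruction, separase cuts cohesin, and the cell divides. T cells enter rapid rounds of division after they are activated through their receptor and CD28. Many promoters of this program carry a cell cycle genes homology region (CHR), the element bound by the DREAM and MuvB complexes, next to CCAAT boxes, which bind NF-Y.

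The promoter windows below show that arrangement. Each runs from 250 bases before to 50 bases after the annotated start of a gene, in RefSeq's GRCm38.p6, and is read 5′ to 3′ on the strand of the gene. Ccnb2, Kif22, Cenpf and Mki67 are the brightest genes of their classes with both elements in the window. Pttg1, the only gene of the set that was higher in KO, was added after its values were seen. Capitals mark the CHR letters TTTGAA or TTCGAA and the letters CCAAT, on either strand, so that TTCAAA and ATTGG are the same elements on the opposite strand.
Ccnb2: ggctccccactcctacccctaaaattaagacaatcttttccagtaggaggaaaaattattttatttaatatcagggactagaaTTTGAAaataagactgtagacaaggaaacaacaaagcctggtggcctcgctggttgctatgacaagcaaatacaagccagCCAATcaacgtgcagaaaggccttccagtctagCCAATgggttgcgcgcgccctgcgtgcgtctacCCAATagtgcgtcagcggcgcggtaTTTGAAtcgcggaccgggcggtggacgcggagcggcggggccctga
Kif22: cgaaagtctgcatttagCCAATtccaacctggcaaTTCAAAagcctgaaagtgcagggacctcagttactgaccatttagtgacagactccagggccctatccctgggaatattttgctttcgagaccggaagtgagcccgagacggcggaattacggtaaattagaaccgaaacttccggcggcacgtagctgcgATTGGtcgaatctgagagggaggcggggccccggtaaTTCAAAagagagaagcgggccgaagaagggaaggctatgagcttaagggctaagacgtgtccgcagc
Cenpf: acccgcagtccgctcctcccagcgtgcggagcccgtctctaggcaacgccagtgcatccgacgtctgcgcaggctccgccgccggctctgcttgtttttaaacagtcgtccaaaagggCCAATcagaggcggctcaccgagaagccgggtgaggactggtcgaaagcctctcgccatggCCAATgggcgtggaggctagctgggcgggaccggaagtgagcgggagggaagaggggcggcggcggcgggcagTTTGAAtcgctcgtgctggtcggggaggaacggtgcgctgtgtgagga
Mki67: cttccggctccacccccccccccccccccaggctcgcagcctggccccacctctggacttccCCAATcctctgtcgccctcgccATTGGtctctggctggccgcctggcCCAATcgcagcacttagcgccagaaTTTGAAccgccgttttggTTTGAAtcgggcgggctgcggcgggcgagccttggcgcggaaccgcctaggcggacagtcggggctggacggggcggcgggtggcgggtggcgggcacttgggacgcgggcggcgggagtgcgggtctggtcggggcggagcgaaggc
Pttg1: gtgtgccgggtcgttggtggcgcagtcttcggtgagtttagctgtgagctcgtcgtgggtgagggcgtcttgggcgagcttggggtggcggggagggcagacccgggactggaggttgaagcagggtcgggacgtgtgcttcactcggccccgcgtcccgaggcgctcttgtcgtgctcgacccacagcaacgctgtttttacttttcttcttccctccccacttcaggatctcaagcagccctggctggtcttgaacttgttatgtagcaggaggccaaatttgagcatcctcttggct

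The Ccnb2 window lies at chr9:70421505-70421804, Kif22 at chr7:127042371-127042670, Cenpf at chr1:189688037-189688336, Mki67 at chr7:135716330-135716629 and Pttg1 at chr11:43425932-43426231, all on the minus strand. Ccnb2 held 2 CHR matches and 3 CCAAT matches, Kif22 2 and 2, Cenpf 1 and 2, and Mki67 2 and 3. The Pttg1 window held 0 of either. Of the mitosis genes with a window and a value, 8 had no match to the letters of either element. A site spelled otherwise or lying outside the window would be missed. All 8 except Pttg1 were lower in KO. They were Nusap1 (-1.22), Ncaph (-1.11), Birc5 (-1.05), Kif18a (-1.05), Plk4 (-0.94), Nuf2 (-0.93) and Mad2l1 (-0.82).

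Nearly the whole set was lower in KO cells, and by a similar amount from gene to gene. Of the 56 genes, 33 were at least 2-fold lower in KO and 0 were at least 2-fold higher, against 5.14% of all named genes lower and 10.8% higher. A total of 55 lay below 0, where 50.5% of all genes did, and 51 were at least 1.5-fold lower, against 12.7% of all genes. No gene of the set was 4-fold lower, against 1.17% of all genes. The median difference was -1.05, a 2.07-fold lower signal, with the middle 50% of genes between -1.16 and -0.86. Over all named genes the median was -0.01 and the middle 50% ran from -0.30 to 0.35.

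The 2-fold limit ran through the middle of the set. A total of 42 of the 56 genes lay between -1.25 and -0.75, and 9 lay within 0.0562 of the limit, the spot SD of signals of 100 or more (22 within 0.132, the SD over all such probes). Cdc25c was the nearest inside it at -1.02 and Cdca8 the nearest outside at -0.97. Both changed sides with their second probe, at -0.95 for Cdc25c and -1.02 for Cdca8. The count of genes past 2-fold moved with the processing, to 10 with another background correction (normexp) and to 37 with centring on the median. With that centring 6.03% of all named genes were at least 2-fold lower. In each of 13 alternatives 55 genes lay below 0, but the 3 filters on dim probes among them could not change the values of the set. Under normexp 13.2% of all named genes were at least 2-fold lower, 1682 lower and 601 higher against 694 and 1458 in the values used here, so the count of 10 stood nearer to its background. The median of the set was then -0.79, where that of all named genes was -0.07. With 6 WT local backgrounds over 200 replaced, normexp gave 23 genes of the set and 2.79% of all named genes at least 2-fold lower. All 56 genes were brighter than the median probe; among named genes as bright as that, 4.4% were at least 2-fold lower.

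**Figure D1:**
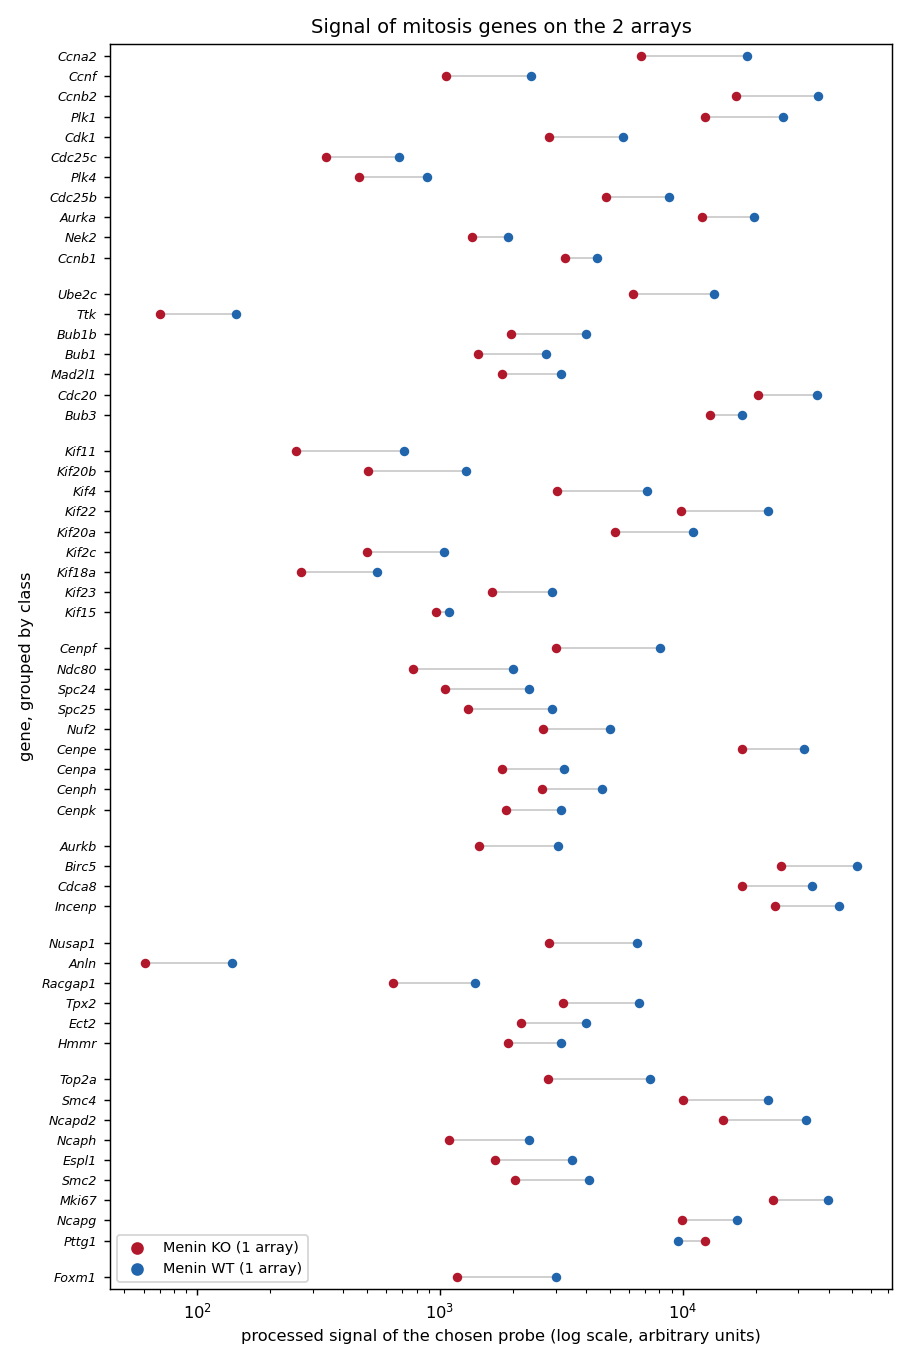
Processed signal (log scale, arbitrary units) of the chosen probe of each of the 56 genes in Menin KO (red) and Menin WT (blue), 1 array each, grouped by class; a line joins the 2 arrays. The KO point lies left of the WT point for every gene except Pttg1, the last but 1 row.

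Markers of the labelled cell type and of other cell types also differed between the arrays. All 8 markers listed for CD4 T cells were well above background on both arrays, with a summed signal of 139297 in KO and 199141 in WT. Apart from Cd4 these are general T cell genes, so the sum does not single out CD4 T cells. Of these 7 were lower in KO, and Cd5 (-1.73), Cd2 (-1.21) and Cd4 itself, at 279 in KO and 443 in WT (-0.68), were furthest apart. Cd28 (-0.27), Lck (-0.25), Cd3e (-0.20) and Cd3d (-0.19) differed less, and Cd3g was higher in KO (0.37). Cd5 weighed heavily in the sums, with a signal of 16739 in KO and 55133 in WT. The summed signal of the 1 CD8 T cell marker read, Cd8a, was 3213 in KO and 312 in WT, that of 5 natural killer markers 8997 and 2259, and that of 5 B cell markers 1595 and 903. Of 6 macrophage or monocyte markers 5 were above background in KO and 4 in WT, with sums of 592 and 273; Cd14, Adgre1 and Fcgr3 were brighter in KO, and Lyz2, Csf1r and Mpeg1 were dimmer. Of 5 mast cell or basophil markers 4 were above background in KO and 3 in WT, with sums of 636 and 98.7. Erythroid markers summed to 308 in KO and 121 in WT. No neutrophil marker of 3 read was above background on either array, nor was Pax5 of the B cell list or Ms4a2 of the mast cell list. The part of other cells in the differences of the mitosis genes was not tested.

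Cyclins, kinases and phosphatases of mitotic entry were lower in KO in all 11 cases, 6 of them by at least 2-fold, with a median of -1.02. Ccna2, cyclin A2, which partners Cdk2 and Cdk1 from S phase into mitosis, stood furthest out, with a signal of 6743 in KO and 18407 in WT (log2 difference -1.46). Cdk1, the kinase that drives mitotic entry, read 2811 in KO and 5691 in WT (-1.03). Its B-type cyclins differed from each other. Ccnb2 read 16560 in KO and 36006 in WT (-1.13), while the chosen probe of Ccnb1 read 3285 in KO and 4441 in WT (-0.45), and the other 2 Ccnb1 probes were at -0.69 each.

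Plk1, a kinase of mitotic entry, centrosomes and cytokinesis, read 12383 in KO and 25949 in WT (-1.08). Aurka, which encodes the Aurora kinase of centrosomes and spindle poles, was less far apart, at 12008 in KO and 19661 in WT (-0.72). Ccnf, an F-box protein of an SCF ubiquitin ligase, read 1054 in KO and 2377 in WT (-1.19). The phosphatases that switch on Cdk1 sat on either side of the 2-fold limit, Cdc25c at 338 in KO and 680 in WT (-1.02) and Cdc25b at 4852 in KO and 8767 in WT (-0.87). The centriole kinase gene Plk4 read 465 in KO and 884 in WT (-0.94). Nek2, a kinase of centrosome separation, read 1357 in KO and 1901 in WT (-0.50).

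Spindle checkpoint genes and the activators of anaphase were also lower in all 7 cases, with 3 past 2-fold and a median of -0.94. The checkpoint kinase genes Ttk and Bub1 read 70.0 and 1436 in KO against 144 and 2733 in WT (-1.05 and -0.94). Bub1b, encoding the BubR1 inhibitor of the anaphase promoting complex, read 1953 in KO and 3983 in WT (-1.04), and Mad2l1, encoding its partner Mad2, 1799 in KO and 3151 in WT (-0.82). Bub3, the shared partner of Bub1 and BubR1, had 1 of the smaller differences of the set, at 12982 in KO and 17588 in WT (-0.45). Cdc20, the activator that the checkpoint holds back, read 20392 in KO and 35657 in WT (-0.82). Ube2c, the ubiquitin-conjugating enzyme of the anaphase promoting complex, read 6234 in KO and 13401 in WT (-1.12).

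Mitotic kinesins, the motors that slide, shorten and carry along spindle microtubules, had 7 of 9 genes at least 2-fold lower and a median of -1.08. Kif11, which pushes the spindle poles apart, had the lowest value of the whole set, with 256 in KO and 709 in WT (-1.48). That place rested on its brighter probe, since the dimmer probe read 27.8 in KO and 59.3 in WT (-1.10). With the mean over probes the lowest value was that of Ccna2 (-1.46). Kif20b, a kinesin of cytokinesis, read 504 in KO and 1285 in WT (-1.36). The chromokinesin genes Kif4 and Kif22, whose products ride on chromosome arms, read 3049 and 9861 in KO against 7116 and 22459 in WT (-1.24 and -1.20). Kif20a, which carries the passenger complex to the midzone, read 5284 in KO and 11059 in WT (-1.08). The microtubule depolymerase gene Kif2c read 498 in KO and 1034 in WT (-1.07), and Kif18a, which limits the swing of chromosomes on the spindle, 269 in KO and 552 in WT (-1.05).

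Kif23 and Kif15 were the kinesin genes inside the 2-fold limit. Kif23, a subunit of centralspindlin, read 1644 in KO and 2899 in WT (-0.83). The chosen probe of Kif15, a kinesin that helps to hold the spindle bipolar, read 965 in KO and 1085 in WT (-0.18), but its dimmer probe read 86.5 in KO and 184 in WT (-1.10). Its place among the kinesins thus rested on which probe was used.

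Kinetochore and centromere genes were lower in all 9 cases, 4 by at least 2-fold, with a median of -0.93. Cenpf, a large protein of the outer kinetochore, had the widest gap, with 3008 in KO and 8054 in WT (-1.43). Its second probe gave -1.37. The Ndc80 complex, which grips microtubule ends, had 3 of 4 genes past 2-fold; this grouping was made after the values were seen. Ndc80 read 774 in KO and 1999 in WT (-1.38), Spc24 1049 in KO and 2336 in WT (-1.17), and Spc25 1309 in KO and 2897 in WT (-1.16). Nuf2 read 2653 in KO and 5027 in WT (-0.93).

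Cenpa, Cenph and Cenpk, the inner kinetochore genes of the set, lay closer together, a grouping that was not planned. Cenpa, the histone H3 variant that marks centromeres, read 1796 in KO and 3241 in WT (-0.86). Cenph and Cenpk, of the network bound to it throughout the cycle, read 2629 and 1879 in KO against 4657 and 3157 in WT (-0.84 and -0.76). Other genes of that network, outside the set, were spread more widely, from Cenpn (-1.18) to Cenpx (-0.01). The kinetochore motor gene Cenpe read 17480 in KO and 31635 in WT (-0.87).

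**Figure D2:**
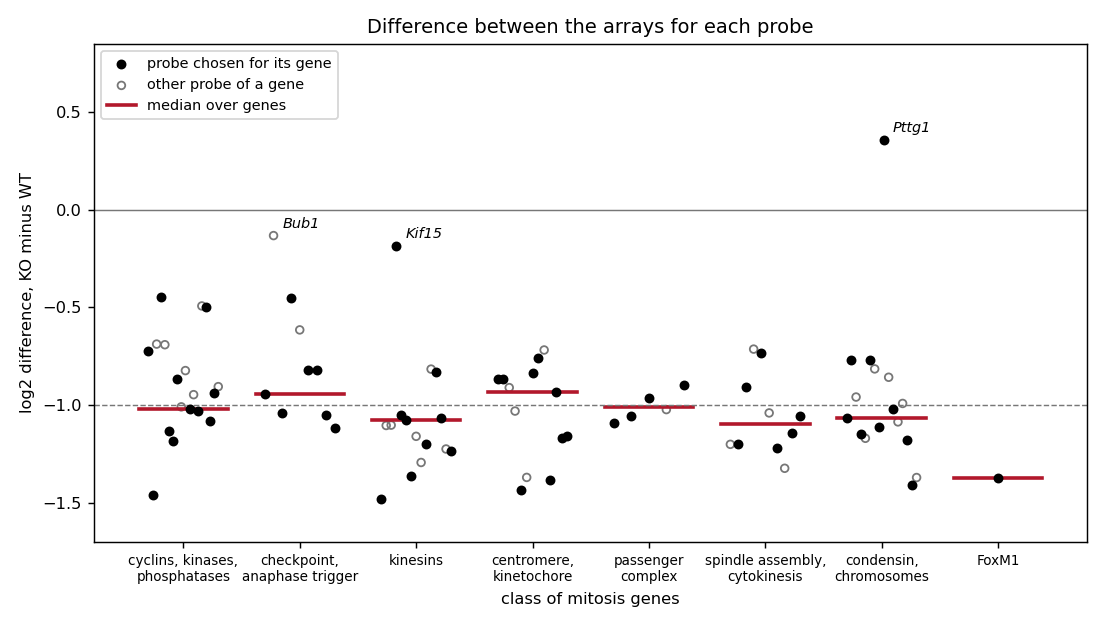
Log2 difference, KO minus WT, of all 87 probes of the 56 genes by class: filled points are the probe chosen for each gene, open circles its other probes, red bars the class medians, and the dashed line 2-fold lower in KO. Class medians lie between -0.93 and -1.10, with Foxm1 alone at -1.38, and Pttg1 is the only point above 0.

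The chromosomal passenger complex, which corrects faulty attachments and then guides cytokinesis, was the most even class, with its 4 genes between -1.09 and -0.90. Aurkb, its kinase, read 1451 in KO and 3060 in WT (-1.09). Birc5, encoding survivin, read 25368 in KO and 52233 in WT (-1.05), Cdca8, encoding borealin, 17565 in KO and 34000.4 in WT (-0.97), and the scaffold gene Incenp 23946 in KO and 44278 in WT (-0.90). Aurkb and Birc5 were past 2-fold.

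Among genes of spindle assembly and cytokinesis 4 of the 6 with a value were at least 2-fold lower, with a median of -1.10. Nusap1, which binds and bundles spindle microtubules, read 2814 in KO and 6506 in WT (-1.22). Tpx2, the activator of Aurora A on the spindle, read 3221 in KO and 6631 in WT (-1.05). Hmmr, encoding a microtubule-binding spindle protein, read 1906 in KO and 3145 in WT (-0.74), with its second probe at -1.04. Of the cleavage furrow genes, Anln (anillin) was dim, at 60.9 in KO and 139 in WT (-1.20), but both of its probes gave -1.20. Racgap1, the partner of Kif23 in centralspindlin, read 640.04 in KO and 1400.03 in WT (-1.14), and Ect2, the RhoA exchange factor it recruits, 2151 in KO and 4003 in WT (-0.91).

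Of the 9 genes of condensin and of chromosome structure and separation 6 were at least 2-fold lower, with a median of -1.07. The condensin core ATPase genes Smc4 and Smc2 read 10013 and 2043 in KO against 22500.4 and 4111 in WT (-1.18 and -1.02). Its condensin I subunits Ncapd2 and Ncaph read 14675 and 1085 in KO against 32203 and 2328 in WT (-1.15 and -1.11), and Ncapg read 9891 in KO and 16698 in WT (-0.77). Top2a, the topoisomerase that untangles sister chromatids, read 2779 in KO and 7325 in WT (-1.41), with its second probe at -1.37. Mki67, the proliferation marker that coats mitotic chromosomes, read 23458 in KO and 39610 in WT (-0.77), with its second probe at -0.96.

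Separase and its inhibitor had differences of opposite sign. Espl1, encoding separase, read 1689 in KO and 3509 in WT (-1.07). Pttg1, encoding securin, which keeps separase inactive until anaphase, read 12364 in KO and 9547 in WT, 1.28-fold higher in KO (0.36). Pttg1 had 1 probe, well above background on both arrays, and its difference stayed above 0 in each of 13 alternatives. With 1 such probe, the rules for probes and the filters on dim probes among them could not change its value. Median centring and leaving out the scaling only shifted all genes by a common amount. Among all named genes, 75.6% had a difference as low as that of Pttg1 or lower.

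Foxm1, the forkhead factor that drives many of these genes in late cycle, read 1174 in KO and 3017 in WT (-1.38), a 2.59-fold lower signal. Of all named genes 2.56% were that low or lower.

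Probes of the same gene mostly gave the same answer. The 56 genes were read by 87 probes, all well above background on both arrays, and 86 of them lay below 0. Of the 25 genes with several probes, 20 had probes within 0.25 of each other, and the median range was 0.16. The widest gaps were those of Kif15 (0.92) and Bub1 (0.81). The second Bub1 probe, on another transcript accession, read 348 in KO and 378 in WT (-0.13). Cdk1 had a gap of 0.54, but its second probe was dim, at 14.3 in KO and 19.99 in WT. For 8 genes the probes lay on both sides of the 2-fold limit, for 8 all probes were past it and for 9 none was.

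Further mitosis genes outside the set were mostly lower too, with list medians nearer to 0. Of 33 other kinetochore and centromere genes with a value 12 were at least 2-fold lower (36.4%) and 0 higher, with a median of -0.78. Over all named genes the shares were 5.14% and 10.8%. Hjurp, the chaperone that deposits Cenpa, read 1584 in KO and 5528 in WT (-1.82), further apart than any gene of the set. Kntc1, of the RZZ complex that brings in the checkpoint, was at -1.33 and Cenpn at -1.18. The brightest genes of that list were Zwint, 10244 in KO and 8513 in WT (0.25), and Sgo1, the protector of centromeric cohesin, 5387 in KO and 12109 in WT (-1.18).

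Other kinesin, spindle and cytokinesis genes had 9 of 24 at least 2-fold lower (37.5%), 0 higher and a median of -0.73. Kif18b (-1.28), citron kinase gene Cit (-1.24), the minus-end motor gene Kifc1 (-1.23) and the astrin gene Spag5 (-1.16) were furthest apart. The brightest were the tubulin gene Tubb5, 93518 in KO and 122132 in WT (-0.40), and the stathmin gene Stmn1, 46401 in KO and 92237 in WT (-1.004). Cohesin and other condensin genes had 3 of 14 at least 2-fold lower (21.4%, against 5.14% of all named genes) and a median of -0.57. These were Esco2, the cohesin acetyltransferase of S phase, 172 in KO and 462 in WT (-1.44), and the condensin II genes Ncapg2 (-1.18) and Ncapd3 (-1.06). The core cohesin genes Rad21 (-0.78) and Smc1a (-0.46), the brightest, were under 2-fold apart.

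The anaphase promoting complex with regulators of mitotic entry and exit had a median of -0.22. Of its 24 genes 2 were at least 2-fold lower (8.33%) and 1 higher, against 5.14% and 10.8% of all named genes. Fbxo5, encoding its inhibitor Emi1, read 3774 in KO and 9138 in WT (-1.29), and Mastl, encoding Greatwall kinase, 226 in KO and 487 in WT (-1.12). The lower count was 1 with the probe of smallest difference, or with normexp and backgrounds over 200 replaced. Cdc14b, a phosphatase, was 2.20-fold higher, at 911 in KO and 411 in WT (1.14), but not 2-fold higher with normexp or with its probe of smaller difference. Anapc5 (-0.52) and Ube2s (-0.59) were the brightest. Centriole duplication genes had a median of -0.49, with 1 of 11 (9.09%), Stil (-1.08), past 2-fold, and Pcnt (-0.49) and Cep63 (-0.22) the brightest. That count was 0 with the mean over probes, the probe of smallest difference, loess, or normexp with backgrounds over 200 replaced.

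Outside mitosis, 40 genes of DNA replication centred on -0.69, with 3 at least 2-fold lower (7.5%) and 0 higher. Over all named genes 5.14% were at least 2-fold lower and 10.8% higher. Prim2, the large primase subunit, stood apart from the rest of its list, at 264 in KO and 4281 in WT (-4.03) on 1 probe, while Pole and Mcm10 were at -1.01 and -1.005. Pcna, the clamp of DNA polymerases, read 44408 in KO and 72318 in WT (-0.72), and the helicase gene Mcm6 85547 in KO and 93872 in WT (-0.15). The 22 E2F, DREAM, MuvB and NF-Y genes had a median of -0.37, with 2 at least 2-fold lower (9.09%) and 0 higher. Those past 2-fold were Rbl1, encoding p107 (-1.29), and Lin9, of MuvB (-1.05). E2f2 (-0.75) and Rbbp4 (-0.42) were the brightest. G1 cyclin and CDK genes had 0 of 7 past 2-fold in either direction and a median of 0.10, which was -0.16 with the mean over each gene's probes. Ccnd2 read 53000.3 in KO and 41434 in WT (0.34), and Ccnd3 36117 in KO and 31129 in WT (0.20).

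**Figure D3:**
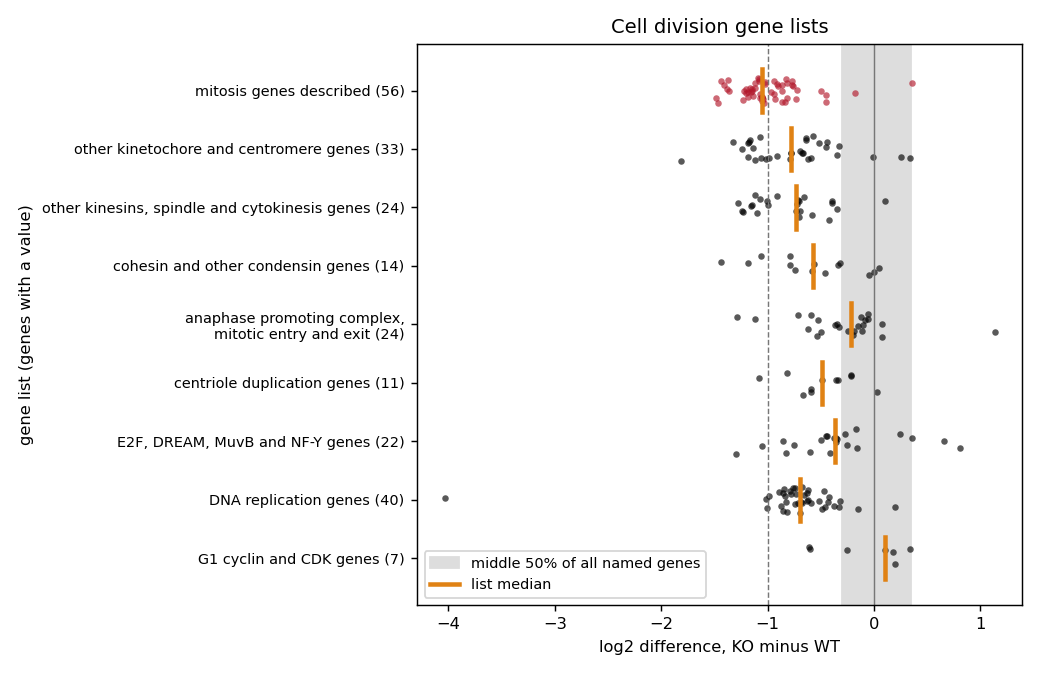
Log2 difference, KO minus WT, of each gene (points) in the 56 mitosis genes (red) and 8 other lists, with list medians (orange), the middle 50% of all named genes (grey) and 2-fold lower in KO (dashed line). The 56 genes centre on -1.05, replication genes on -0.69 and G1 genes on 0.10 (-0.16 with the mean over probes).

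The letters of the CHR and of CCAAT were in most promoter windows of the mitosis genes. A window was given for 48 of the 57 genes, 53 windows in all. Some genes, such as Ect2 and Prc1, had overlapping windows, and a shared site was counted in each. The letters TTTGAA or TTCGAA, searched on both strands, were in 71.7% of them, against 19.1% of 32798 windows of all other genes. CCAAT, on both strands, was in 75.5% against 37.3%, and both elements in 62.3% against 7.44%. CHR and CCAAT matches overlapped in 1 window. The E2F letters TTTCGCGC or TTTGGCGC, on both strands, were in 7.55%, those of Cdk1, Kif15, Kif18a and Ncapd2, against 0.802%, and overlapped CHR or CCAAT matches in 0 of the mitosis windows. A match is a run of letters and shows no bound factor.

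The replication genes had another mix, with CHR letters in 15.4% of 39 windows, CCAAT in 64.1% and E2F letters in 25.6%. By class, CHR letters were in 7 of 8 windows of checkpoint genes, 7 of 8 of kinesins and 4 of 10 of kinetochore genes. The CHR matches of the mitosis genes had their median centre at position -14.5 in bases from the start, against -122.5 in other genes. Within 100 bases before the start lay 28.3% of these matches, against 30.5% in other genes, and within 50 bases on either side 67.9% against 25.4%. That second window was chosen after the positions were seen. Of the CCAAT matches 60.7% lay within 100 bases before the start, against 43.7% in other genes, and 35.7% within 50 bases on either side, against 29.2%.

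**Figure D4:**
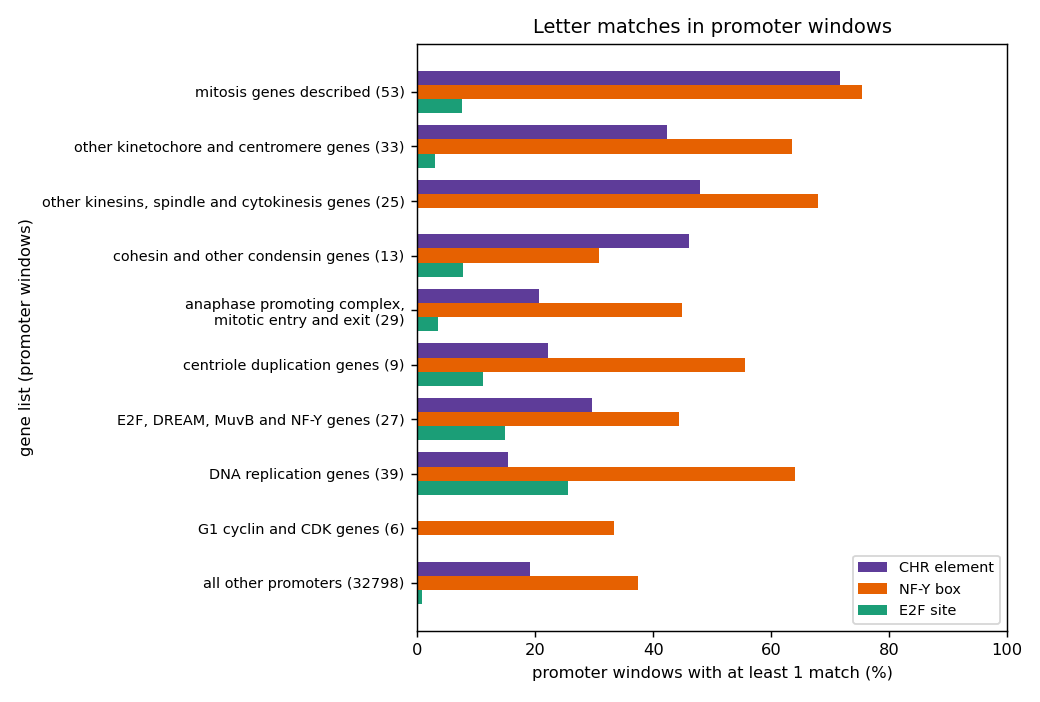
Share of promoter windows (%) with at least 1 match to the CHR element (purple), the NF-Y box (orange) or an E2F site (green), for the mitosis genes, 8 other lists and all other promoters, with the number of windows in brackets. CHR matches are in 71.7% of the mitosis windows and 15.4% of the replication windows.

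Splits of the differences by promoter letters were made after the values were seen. The 34 mitosis genes with CHR letters had a median of -1.06, with 21 at least 2-fold lower, and the 13 without had a median of -0.87, with 4. The split by CCAAT ran the other way, at -0.99 for 34 genes with it and -1.05 for 13 without. Outside all lists, 5.31% of genes with CHR letters and 4.48% of those without were at least 2-fold lower. With both elements, 17 of 29 mitosis genes were at least 2-fold lower (median -1.04), and without both 8 of 18 (median -0.94). Outside all lists, 700 genes with both elements had a median of -0.02 and 4.86% at least 2-fold lower, against 0.00 and 4.60% for 9958 genes without both.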

How the data were processed

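Total RNA (500 ng) of each culture was labelled with Cy3 and hybridised to 1-colour Agilent mouse arrays, per the labels' protocols. Spot intensity was the processed signal the authors deposited, background-subtracted and detrended on a linear scale by Feature Extraction 10.7.3.1, per the file headers (10.7 per the submitters' processing notes). The deposited value table holds log2 values, which equalled log2 of that signal minus a constant per array within 0.01 for 99.7% of probes on each array, with column medians of -3.90 for KO and -3.97 for WT. Probe annotation was on mm9, per the file headers.

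Control spots and outlier-flagged spots (103 on KO, 115 on WT) were left out, and no non-control spot was saturated. From log2 signal the array's 75th percentile was subtracted (signals of 650 on KO and 644 on WT), and repeated spots of 1 probe were averaged. Well above background were 63.5% of spots on KO and 59.5% on WT. Accessions gave 27050 of 41174 probes 1 symbol, through RefSeq's GRCm38.p6 table used for names only. A gene took the brightest of its probes that stood well above background on either array. For 1035 genes dim on 1 array the difference was a bound, and none of these is a mitosis gene of the set. The size rule was 2-fold. Precision is limited by the number of arrays.

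The 57 genes, the 8 other lists and the cell type markers were chosen with earlier results of these data known. Named genes were all of the 57, the genes of each other list at least 2-fold apart (up to 4) with its 2 brightest, Men1 and markers; some genes that meet this rule are not reported here. Labels name 1 sample of each genotype, so no test was made. The step from spots to genes was run on simulated shifts, for genes above background on both arrays only. Its tolerance was widened after a first run missed it, and the rule for genes dim on 1 array was not tested. Alternatives were 2 normexp background corrections (limma 3.58.1, offset 50), 4 scalings, the authors' values, 2 rules for probes, 3 filters on dim probes, flags kept and 2 other size rules. Python 3.11.15, pandas 2.3.3 and R 4.3.3 were used.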

Additional observations from a re-analysis of the deposited data

How the results depend on the processing

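Leaving out an array was not run, since each genotype had 1. No paired analysis was possible because each genotype had 1 sample. Normexp was planned on mean spot signals, but without a mean signal column in the files used here the median signal took its place; 6 local backgrounds on WT were over 200, and 0 on KO.

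In 13 alternatives 55 of the 56 mitosis genes lay below 0 and 0 were 2-fold higher, and the median ran from -1.13 (median centring) to -0.79 (normexp). Genes at least 2-fold lower numbered 10 with normexp, 23 with normexp after those 6 backgrounds were replaced, 26 with loess, 30 with either probe rule, 31 with the authors' values, 32 with quantile normalization, 37 with median centring and 33 with the other 5. Over all named genes the share was 4.60% with loess, 4.86% with the authors' values, 5.64% with quantile normalization and 6.03% with median centring. Genes of the set numbered as follows at other size rules. They numbered 51 at 1.5-fold and 0 at 4-fold.

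Normexp also turned the split of all named genes, to 1682 at least 2-fold lower (13.2%) and 601 higher, against 694 and 1458. Under it the class medians were -0.77 (cyclins and kinases), -0.71 (checkpoint), -0.68 (kinetochore), -0.75 (passenger complex), -0.89 (spindle assembly), -0.77 (condensin) and -1.12 (Foxm1), and those of other lists -0.59 (kinetochore), -0.39 (cohesin), -0.0448 (anaphase promoting complex) and -0.45 (replication). Its 2-fold lower counts were 5 (kinetochore), 2 (kinesins), 1 (cohesin), 1 (E2F), 1 (replication) and 1 (G1), and no anaphase promoting complex gene was 2-fold higher (0). With the backgrounds replaced, the checkpoint median was -0.79 and that of spindle assembly -0.93, and the counts were 1 (anaphase promoting complex), 0 (centriole) and 1 (E2F). Over all named genes that replacement gave 369 at least 2-fold lower (2.79%) and 760 higher. Of the mitosis genes 23 were then at least 2-fold lower, with a median of -0.94. Beyond that replacement, why normexp moved these values was not tested.

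With the probe of smallest difference, 1 anaphase promoting complex gene was 2-fold lower and 0 higher, and centriole genes had a median of -0.36 and 0 lower. Centriole genes also had 0 lower with loess and with the mean over probes, E2F genes 1 with loess, and replication genes 1 with no scaling, loess or the authors' values. The G1 median was -0.16 with the mean over probes, so its sign is not settled. Median centring shifted the median of all named genes by -0.08, the widest shift of the 13.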
